A study of Mus musculus with 23 samples.

Results

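Melanoma metastases from the lung were compared with melanoma metastases from lymph nodes of mice. All libraries labelled as metastases were taken, 9 of the 23 in the series: 2 from lung and 7 from lymph nodes. The 2 node libraries of number 7, one cervical and one inguinal, were summed, which left 6 node samples. The samples carry numbers in their titles, so the lung metastases are called lung 3 and lung 4 here and the node metastases node 3 to node 8. Numbers 3 and 4 each have a lung, a node and a primary tumour, number 8 has a node metastasis and no primary, and the number is read here as the animal, which the labels do not state. Every metastasis, and the 7 primary melanomas that entered the model with them, is labelled HPN with the genotype Nme1+/- / Nme2+/-. The primaries labelled HP, with Nme1wt / Nme2wt, have no metastases among these samples and enter only an alternative fit of all 4 groups. The tumours were UV-induced per the series title, HP and HPN are not spelled out in the labels, and age and sex are not given. Nodes 3, 4 and 8 are labelled brachial, node 6 cervical and node 5 lymph only. Each tissue is a bulk piece, so fewer cells of a type and less RNA per cell cannot be told apart. No label says whether 2 libraries came from separate animals, and p-values then measure the spread between these samples.

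A lymph node is built around B cell follicles and a T cell zone, fed by high endothelial venules and organised by stromal cells that secrete chemokines. Lung is built of alveolar type 1 and type 2 cells, airway club and ciliated cells, a dense capillary bed and a mesothelial cover, and in mice heart muscle extends along the pulmonary veins. Melanoma cells come from the neural crest, carry the pigment genes of melanosomes in their differentiated state, and can show nerve-like or mesenchymal genes instead. A melanoma metastasis cut from either organ can hold RNA of the host tissue beside that of the tumour.

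The metastasis libraries held from 18870759 to 37598836 gene counts, 31213391 in lung 3 and 28543393 in lung 4. Reads outside genes made up 30.5 to 66.1% of the counted total, with 39.8% in lung 3 and 30.5% in lung 4. Of the metastasis libraries, the 3 of nodes 7 and 8 list a few reads set aside for low quality, and the others list none. These were 2005 and 1259 reads in the libraries of node 7 and 196 in node 8. Levels are counts per 1000000 gene counts (CPM) after TMM scaling, are not corrected for gene length, and are compared between samples and not between genes. The sex-linked genes of the lung, node and primary were alike within number 3, with Y-linked genes expressed, and within number 4, with Xist expressed. An exact permutation test of 2 lungs against 6 nodes cannot go below p = 0.0714 (two-sided).

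Promoter windows of RefSeq (GRCm38.p6, 250 bases before to 50 after a start) are shown for 2 sets of genes on which the results turn. The first set was high in lung 4 and at or near 0 in lung 3. Capitals mark the letters CTCAAG or, on the other strand, CTTGAG, the core that the lung factor Nkx2-1 is known to bind. They are in 15.9% of the 32851 windows used, which do not cover every chromosome, and in 11 of the 33 lung epithelium genes listed there. A gene counts if any of its windows holds the letters, so the share of windows and the count of genes are not alike. Sftpb lies at chr6:72304360-72304659, plus strand, Bpifa1 at chr2:154142630-154142929, plus strand and Sftpa1 at chr14:41131538-41131837, plus strand.
Sftpb: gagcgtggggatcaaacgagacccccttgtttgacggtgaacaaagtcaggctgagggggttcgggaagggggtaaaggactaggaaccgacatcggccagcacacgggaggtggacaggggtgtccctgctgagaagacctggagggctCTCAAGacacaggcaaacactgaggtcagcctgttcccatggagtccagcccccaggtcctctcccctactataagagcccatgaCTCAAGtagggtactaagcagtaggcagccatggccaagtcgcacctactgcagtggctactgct
Bpifa1: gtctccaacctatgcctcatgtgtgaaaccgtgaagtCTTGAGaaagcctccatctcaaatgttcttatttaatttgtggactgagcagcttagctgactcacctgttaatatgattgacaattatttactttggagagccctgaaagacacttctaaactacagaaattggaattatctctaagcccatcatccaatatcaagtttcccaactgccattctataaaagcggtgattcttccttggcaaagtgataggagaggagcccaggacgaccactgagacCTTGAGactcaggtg
Sftpa1: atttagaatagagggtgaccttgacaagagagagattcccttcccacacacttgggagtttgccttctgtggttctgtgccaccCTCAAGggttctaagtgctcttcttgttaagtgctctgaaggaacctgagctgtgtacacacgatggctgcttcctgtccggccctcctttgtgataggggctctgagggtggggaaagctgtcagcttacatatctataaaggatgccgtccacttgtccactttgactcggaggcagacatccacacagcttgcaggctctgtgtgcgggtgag

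The second set belongs to 2 melanosome genes that stood high against the rest of their list in both lungs. Capitals mark CATGTG or its other strand CACATG, letters at the core of the M-box that Mitf is known to bind. They are in 14.2% of the same 32851 windows. Counted by gene as before, they are in 6 of the 11 melanosome genes in the table: Dct, Oca2, Slc24a5, Trpm1, Tyr and Tyrp1. A match is a description and not a binding site. Tyr lies at chr7:87493463-87493762, minus strand, and Dct at chr14:118052197-118052496, minus strand.
Tyr: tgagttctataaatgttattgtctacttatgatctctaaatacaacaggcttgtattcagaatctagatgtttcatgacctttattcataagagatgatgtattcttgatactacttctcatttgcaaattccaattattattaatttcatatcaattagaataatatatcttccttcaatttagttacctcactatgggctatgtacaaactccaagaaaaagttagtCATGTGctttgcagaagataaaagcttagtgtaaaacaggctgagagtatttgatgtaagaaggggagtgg
Dct: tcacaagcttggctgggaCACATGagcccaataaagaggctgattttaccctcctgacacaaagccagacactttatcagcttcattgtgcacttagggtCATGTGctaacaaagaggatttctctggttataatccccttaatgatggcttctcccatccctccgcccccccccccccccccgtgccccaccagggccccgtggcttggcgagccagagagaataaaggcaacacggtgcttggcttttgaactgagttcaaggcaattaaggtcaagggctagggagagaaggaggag

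Lung metastases differed from node metastases in 2 groups of listed genes. Genes of B and T lymphocytes were low in both lungs, as were single genes of the node's stroma and venules such as Cxcl13 and Glycam1. Genes of lung and heart muscle tissue were high in lung 4 and mostly within or below the node range in lung 3. Single genes such as Matn2, Nes, Kcna1, Mal and Shisa4 stood above the nodes in both lungs. Of 19152 genes tested, 375 rose in the lungs (1.96%) and 591 fell (3.09%) at an edgeR adjusted p under 0.05. Both lungs lay above all 6 nodes for 2148 genes (11.2%) and below all 6 for 2564 genes (13.4%), whatever the test. These shares over all genes are the background for each count of list members below. Scaling by library size alone gave 1568 and 2953 such genes, and a fit of the metastases alone, in which the genes were filtered and scaled again, 1443 and 2932.

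The 2 directions were not alike in what the 2 lungs shared. Of the 591 genes that fell, 589 lay below the nodes in both lungs. Such genes are by definition also lower than the node of the same number in both animals. With them, 590 were lower in this way. Of the 375 that rose, 265 lay above the nodes in both lungs, 104 in lung 4 and not lung 3, and 6 in lung 3 and not lung 4. In 310 of the 375 both lungs were above the node of their own number, which for the 265 follows from the range. Among those 265, the lungs were within 2-fold of each other for 169 genes, lung 4 was at least 4-fold above lung 3 for 54, and the reverse held for 3. The lungs also differed from each other: of 11372 genes at 5 CPM or more over both, 762 were at least 4-fold higher in lung 4 and 97 in lung 3, 859 in all, while the 15 pairs of nodes gave 100 to 1219 such genes with a median of 241.

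Every call rests on few libraries. With the sample number as a block, which ties each metastasis to its animal, no gene passed (lowest edgeR adjusted p = 0.0904), although all 966 called genes kept their sign and 293 of the 375 and 578 of the 591 had an unadjusted p under 0.05. Without lung 4 no gene passed (lowest edgeR adjusted p = 0.0932, 3240 genes at an unadjusted p under 0.05). Without nodes 7 and 8, which list from 196 to 2005 low-quality reads per library, none did either (0.0561, and 3042 genes). That fit also holds fewer nodes, and the cause of the loss was not tested. DESeq2 on all samples called 771 genes higher and 1698 lower.

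**Figure D1:**
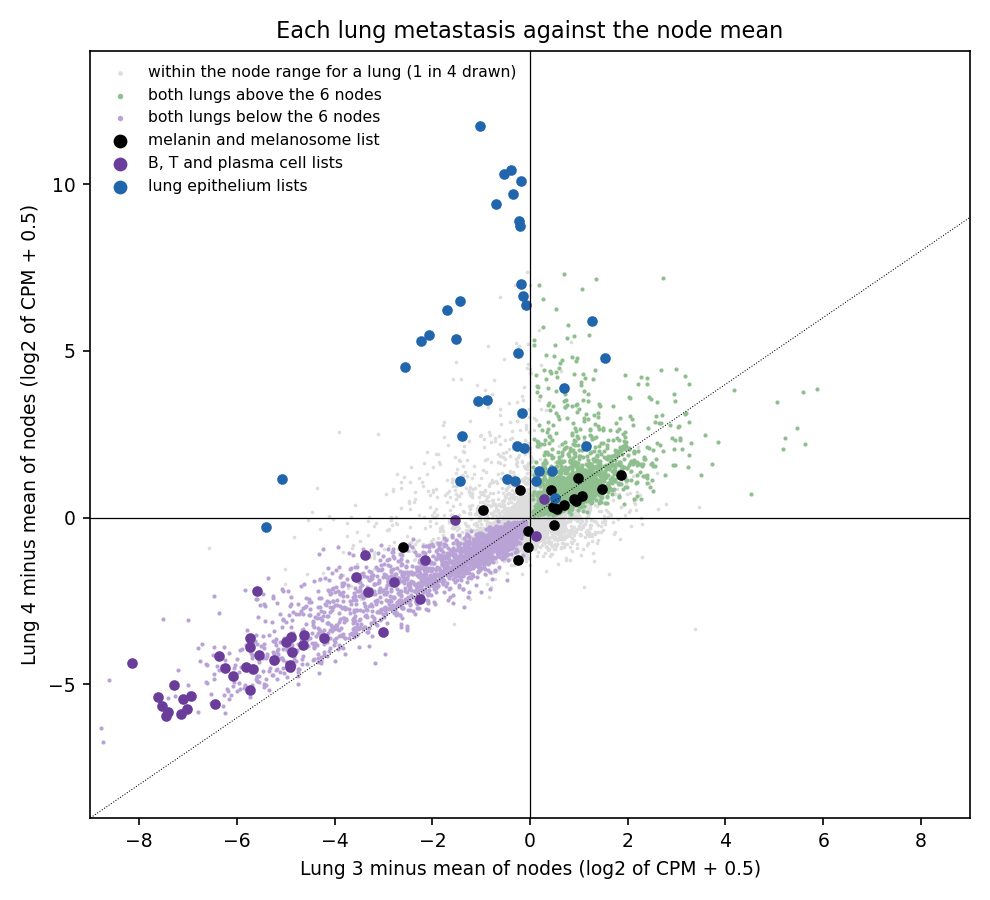
Each point is a gene; the axes give the difference of lung 3 (horizontal) and of lung 4 (vertical) from the mean of the 6 nodes, in log2 of CPM + 0.5. Lung epithelium genes (blue) lie above the dotted diagonal, where lung 4 is higher than lung 3, and mostly below 0 on the horizontal axis, lymphocyte genes (purple) lie low on both axes, and melanosome genes (black) lie around 0.

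Lung epithelium genes separated the 2 lung metastases. Sftpc, the surfactant protein C gene of alveolar type 2 cells, stood at 0.193 CPM in lung 3 and 4840.2 CPM in lung 4, and between 0 and 4.18 CPM in the nodes (median 1.43). Lung 3 was within the node range and lung 4 far above it. Sftpb, which encodes surfactant protein B, was at 0 in lung 3, where no count was recorded, at 913 CPM in lung 4, and at most 0.584 CPM in a node. Sftpa1, encoding surfactant protein A, had 0.0642 CPM in lung 3 and 1005 CPM in lung 4 against at most 0.633 CPM in the nodes. Slc34a2, the phosphate transporter of the same cells, was at 0.161 CPM in lung 3 and 823 CPM in lung 4. The secretoglobin Scgb1a1 of club cells and the secreted airway protein Bpifa1 had no count in lung 3, and stood at 554 and 528 CPM in lung 4. The highest node values were 0.834 CPM for Scgb1a1 and 0.449 CPM for Bpifa1.

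These values were called, with lung 4 alone carrying the difference. Sftpb gave a log2 difference of 10.85 ± 1.89 (SE), edgeR adjusted p = 0.0167, and 0.196 with the sample number as a block. For Sftpc the edgeR adjusted p was 0.0318, and 0.269 with the block. Of 11 alveolar type 2 genes 6 rose, of 11 alveolar type 1 genes 5, of 7 club and secretory genes 4, and of 8 ciliated cell genes 2, against 1.96% of all genes. Over these 37 genes lung 4 was above all nodes for 35 and lung 3 for 3. Ager, the receptor for glycated proteins that marks alveolar type 1 cells, was at 3.05 CPM in lung 3 and 394 CPM in lung 4, and between 1.61 and 5.88 CPM in the nodes (median 3.73), so that lung 3 was inside the node range. Rtkn2, another type 1 gene, was one of the 3 with both lungs outside, at 6.90 CPM in lung 3 and 70.3 CPM in lung 4 and at most 3.68 CPM in a node.

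The summed level of the epithelial lists, with members too low to be tested, was 653 CPM in lung 3 and 13754 CPM in lung 4. The lowest, median and highest node values were 547, 790 and 924 CPM. In the library labelled lung 3 the sum was thus within the node range, and in lung 4 above it. Of the 37 genes tested, lung 3 was above all nodes for 3, Rtkn2 among them. It was below all nodes for 4 alveolar type 2, 3 alveolar type 1, 2 club and secretory and 2 ciliated cell genes. Sftpb, Scgb1a1 and Bpifa1 had no count there. Over all members of the lung tissue lists, which add capillary, fibroblast, muscle, alveolar macrophage and heart genes, the sums were 2287 CPM in lung 3, 20439 CPM in lung 4 and 2280.1 to 3665 CPM in the nodes. Of the 116 members tested, 40 rose and 1 fell. Lung 4 was above the nodes for 96 and lung 3 for 17. How much of each other rise in lung 4 goes with this tissue was not tested. The lung 3 value is therefore given wherever a lung 4 level is printed, and genes named as risen without levels lack it.

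**Figure D2:**
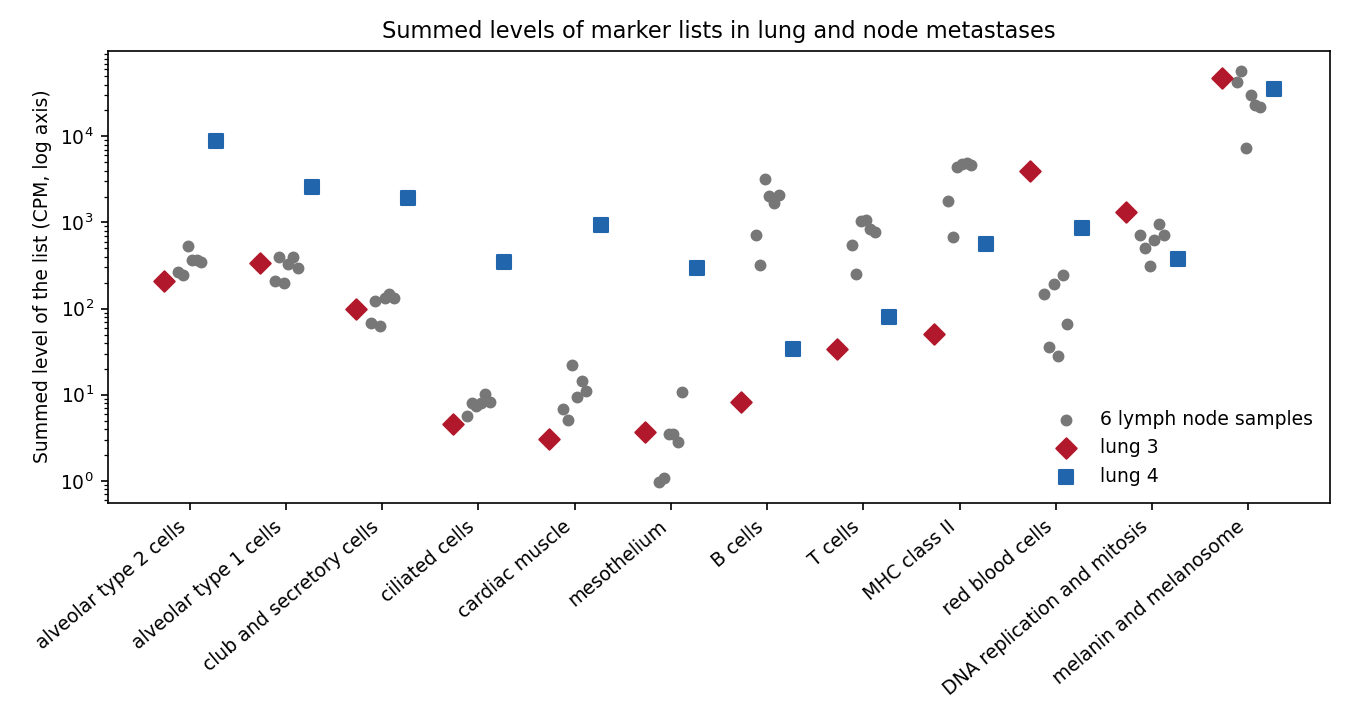
Summed CPM of 12 marker lists (log axis) in lung 3 (diamond), lung 4 (square) and the 6 nodes (grey). Lung 4 exceeds the nodes for the airway, alveolar, heart muscle and mesothelial lists, lung 3 exceeds them for DNA replication, and both lungs lie below the nodes for B cells, T cells and MHC class II.

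Heart muscle genes followed the lung epithelium. Myh6, an alpha myosin heavy chain of heart muscle, had no count in lung 3, 405 CPM in lung 4 and at most 0.360 CPM in a node. Actc1, cardiac actin, was at 156 CPM in lung 4, with no count in lung 3. Sln, the sarcolipin gene of atrial muscle, had no count in any node, 0.0321 CPM in lung 3 and 19.4 CPM in lung 4. Of 9 heart muscle genes tested 6 rose, and all 9 were above the nodes in lung 4. Chil3, a chitinase-like protein of alveolar macrophages, was at 0.899 CPM in lung 3 and 633 CPM in lung 4 and between 1.45 and 29.9 CPM in the nodes (median 5.81). It was thus below all nodes in lung 3 and above all of them in lung 4.

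Mesothelial genes were above the nodes in both lungs more often than genes of the other lung tissue lists, by count alone. Msln, which encodes mesothelin, was at 0.417 CPM in lung 3 and 89.8 CPM in lung 4, and at most 0.144 CPM in a node. Both lungs were above all nodes, lung 4 by far the more. Upk3b, a uroplakin of mesothelium, was at 0.642 CPM in lung 3 and 62.7 CPM in lung 4 with at most 0.0899 CPM in a node. Wt1, the Wilms tumour factor of mesothelial cells, was at 0.514 CPM in lung 3 and 4.97 CPM in lung 4 and at most 0.173 CPM in a node. Msln gave a log2 difference of 9.20 ± 1.33 (SE), edgeR adjusted p = 0.0138, and 0.312 with the sample number as a block. Of 8 mesothelial genes 6 rose, and 5 had both lungs above the nodes. The values of lung 3 were below 1 CPM for all 3 of these genes. Tbx5, a T-box factor of heart and lung mesenchyme, showed the same order, with 0.803 CPM in lung 3 and 17.4 CPM in lung 4 and at most 0.316 CPM in a node.

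Lung 3 stood apart from the nodes in other genes. All 16 genes of the DNA replication and mitosis list were above the 6 nodes in lung 3, and none was in lung 4. Over all 19152 genes tested, both lungs were above the nodes for 2148, lung 3 alone for 2597 and lung 4 alone for 2690. Mki67, the proliferation marker Ki-67, was at 326 CPM in lung 3 and 56.9 CPM in lung 4, with 68.7, 146 and 312 CPM as the lowest, median and highest node values. Lung 3 was just above the highest node and lung 4 below the lowest. Top2a, topoisomerase II alpha, was at 207 CPM in lung 3 and 47.9 CPM in lung 4 and between 45.3 and 154 CPM in the nodes (median 108). The summed level of the list was 1309.8 CPM in lung 3, 377 CPM in lung 4 and 312 to 972 CPM in the nodes. The primaries held 586 to 1579 CPM, so that lung 3 was within their range. No member was called by edgeR and 0 by DESeq2, and 1 had an unadjusted edgeR p under 0.05.

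Red blood cell genes were high in both lungs and highest in lung 3. Hbb-bs, a beta-globin gene, was at 2345 CPM in lung 3 and 674 CPM in lung 4, with 16.6, 55.3 and 127 CPM as the lowest, median and highest node values. Both lungs were above all nodes, and it was called, with a log2 difference of 4.58 ± 1.19 (SE), edgeR adjusted p = 0.0435, and 0.146 with the sample number as a block. Alas2, the first enzyme of haem synthesis in red cells, was at 280.0 CPM in lung 3 and 25.5 CPM in lung 4 and at most 14.2 CPM in a node, and missed the threshold (edgeR adjusted p = 0.0606). Of 7 red cell genes 1 rose and 5 had both lungs above the nodes, where 1.96% and 11.2% of all genes did. Reads of the beta-globin genes can be split between near-identical copies.

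B cell genes were among the deepest falls. Cr2, the complement receptor of mature and follicular B cells, was at 0.321 CPM in lung 3 and 1.47 CPM in lung 4, with 27.2, 169 and 371 CPM as the lowest, median and highest node values. Bank1, a B cell scaffold protein, was at 0.161 CPM in lung 3 and 1.39 CPM in lung 4, and between 25.7 and 364 CPM in the nodes (median 160.3). Both genes were at least 10-fold lower in either lung than in any node. Bank1 had a log2 difference of -7.67 ± 1.27 (SE), edgeR adjusted p = 0.0155, and 0.211 with the sample number as a block. All 13 B cell genes tested fell and all 13 lay below the nodes in both lungs, where 3.09% and 13.4% of all genes did. The primaries overlapped the lungs: Cr2 was at 0.111 to 2.08 CPM in the 7 primaries, and the summed level of the B cell list was 8.28 CPM in lung 3, 34 CPM in lung 4, 11.5 to 37.7 CPM in the primaries and 321 to 3225 CPM in the nodes.

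Most T cell genes fell too. Cd4, the co-receptor of helper T cells, was at 2.54 CPM in lung 3 and 3.97 CPM in lung 4, with 49.99, 197 and 307 CPM as the lowest, median and highest node values. It gave a log2 difference of -5.86 ± 0.93 (SE), edgeR adjusted p = 0.0138, and 0.215 with the sample number as a block. Cd3e, a chain of the T cell receptor complex, was at 0.161 CPM in lung 3 and 1.29 CPM in lung 4, and Cd8a, the co-receptor of cytotoxic T cells, at 0.0963 CPM in lung 3 and 1.001 CPM in lung 4. The lowest node values were 7.22 and 6.53 CPM. Of 16 T cell genes 12 fell and all 16 were below the nodes in both lungs. Immunoglobulin and T cell receptor segments, counted as a group, gave 71 falls among 186 tested, with 168 below the nodes in both lungs. Over all genes 3.09% fell and 13.4% lay below the nodes in both lungs. The summed level of all segments, tested or not, was 10.6 CPM in lung 3 and 117 CPM in lung 4, and 1117 to 32067 CPM in the nodes. In the primaries it was 11.4 to 292 CPM. Segments that low outside the nodes could pass the expression filter through the nodes alone, which in itself favours values below them. A further 120 of the 591 genes that fell were predicted genes or pseudogenes, which left 400 others.

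Lymphocyte lists were higher in lung 4 than in lung 3. All members of the B, T and plasma cell lists summed to 212 CPM in lung 3 and 477 CPM in lung 4, against 1051 to 6654 CPM in the nodes and 252 to 563 CPM in the primaries. Ms4a1, which encodes CD20, was at 0.128 CPM in lung 3 and 1.82 CPM in lung 4. The nodes spread widely too: node 4 had the lowest value for Cr2, Bank1 and Cd4, with 27.2 CPM for Cr2. Of 10 natural killer and cytotoxic cell genes none was called by edgeR (6 had an unadjusted p under 0.05, and DESeq2 called 5) and 4 lay below the nodes in both lungs. Of 11 plasma cell and germinal centre genes 3 fell.

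Signals that build a lymph node were low in the lungs. Cxcl13, the chemokine that draws B cells into follicles, was at 0.321 CPM in lung 3 and 0.787 CPM in lung 4 and between 9.78 and 232 CPM in the nodes (median 104). Glycam1, a mucin of high endothelial venules, was at 0.0321 CPM in lung 3 and 0.250 CPM in lung 4, and between 2.21 and 141 CPM in the nodes (median 17.3). For both genes the lungs were below all nodes. Of 11 node stroma and venule genes tested 3 fell, 8 were below the nodes in both lungs, and 2 were above them in lung 4. The list summed to 204 CPM in lung 3, 564 CPM in lung 4 and 531 to 1768 CPM in the nodes, so that lung 4 was within the node range. Ltb, which encodes lymphotoxin beta, was at 0.161 CPM in lung 3 and 2.57 CPM in lung 4 against 20.2 CPM or more in the nodes, with a log2 difference of -5.88 ± 1.23 (SE), edgeR adjusted p = 0.0266, and 0.215 with the sample number as a block. Ccr6, a chemokine receptor of B cells and some T cells, and Il21r, the interleukin 21 receptor, fell as well. Of 10 lymphoid chemokine and cytokine genes 5 fell and 9 were below the nodes in both lungs. Prg2, the eosinophil major basic protein gene, was at 0.0642 CPM in lung 3 and 0.0358 CPM in lung 4, with between 2.30 and 31 CPM in the nodes (median 8.33). Pla2g2d, a secreted phospholipase of lymphoid tissue, was at 0.0321 CPM in lung 3 and 1.72 CPM in lung 4, with between 20.9 and 268 CPM in the nodes (median 130.4).

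Antigen presentation went the same way with fewer calls. H2-Ob, a chain of the H2-O protein that tunes peptide loading in B cells, was at 0.482 CPM in lung 3 and 3.33 CPM in lung 4, with 31.3, 159 and 307 CPM as the lowest, median and highest node values. Ciita, the master factor of MHC class II genes, was at 1.44 CPM in lung 3 and 11.1 CPM in lung 4, and between 39.9 and 396 CPM in the nodes (median 223), and fell (edgeR adjusted p = 0.0391, 0.244 with the block). H2-Aa, a class II chain itself, was at 9.86 CPM in lung 3 and 92.8 CPM in lung 4 and 119 CPM or more in the nodes, below all of them, but missed the threshold (edgeR adjusted p = 0.0758). Of 9 class II genes 3 fell and 6 were below the nodes in both lungs. Tap1 and Tap2, the 2 subunits of the peptide transporter for MHC class I, fell too: Tap1 was at 16.5 CPM in lung 3 and 24 CPM in lung 4, with 38.5, 153 and 228 CPM as the lowest, median and highest node values. In the primaries Tap1 was at 23.9 to 108 CPM, and lung 3 lay below that range.

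Checkpoint genes were mostly below the nodes in both lungs, in 8 of 10, where 13.4% of all genes were, with 2 calls. Btla, an inhibitory receptor of lymphocytes, was at 0.963 CPM in lung 3 and 2.97 CPM in lung 4, with 30.7, 154 and 321 CPM as the lowest, median and highest node values. Lag3, an inhibitory receptor of activated T cells, was at 0.417 CPM in lung 3 and 0.644 CPM in lung 4, and between 1.61 and 14.1 CPM in the nodes (median 9.55). Cd274, which encodes PD-L1, was at 12.3 CPM in lung 3 and 31.7 CPM in lung 4, with 34.6, 68 and 110.4 CPM as the lowest, median and highest node values, and was not called (edgeR adjusted p = 0.106). Both lungs were also below all 7 primaries for Cd274, at 40.8 to 133 CPM in the 7 primaries. Of 13 macrophage genes none was called by edgeR (2 had an unadjusted p under 0.05, and DESeq2 called 1) and 8 lay below the nodes in both lungs, and the summed levels were 6869.6 CPM in lung 3, 5726 CPM in lung 4 and 1873 to 7056 CPM in the nodes. Of 14 interferon response genes none was called by edgeR (6 had an unadjusted p under 0.05, and DESeq2 called 3). Both lungs lay below the nodes for 2 of them, near the share of 13.4% over all genes.

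General leukocyte genes led the abundant genes that fell outside these lists. Ptprc, the CD45 phosphatase of leukocytes, was at 14.5 CPM in lung 3 and 58.9 CPM in lung 4, with 134, 704 and 1009.8 CPM as the lowest, median and highest node values. Coro1a, an actin regulator of leukocytes, was at 7.09 CPM in lung 3 and 37.2 CPM in lung 4, and between 84.8 and 546 CPM in the nodes (median 477). Dock2, the Rac activator of lymphocyte migration, and Syk, the kinase below the B cell receptor, fell as well. Man1a, a mannosidase of the Golgi, was less far down, at 80.9 CPM in lung 3 and 94.5 CPM in lung 4, and 196 CPM or more in the nodes. Rnf213, a large ubiquitin ligase, was below both the nodes and the primaries, at 146 CPM in lung 3 and 124 CPM in lung 4, 178 CPM in the lowest node and 161 CPM in the lowest primary.

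**Figure D3:**
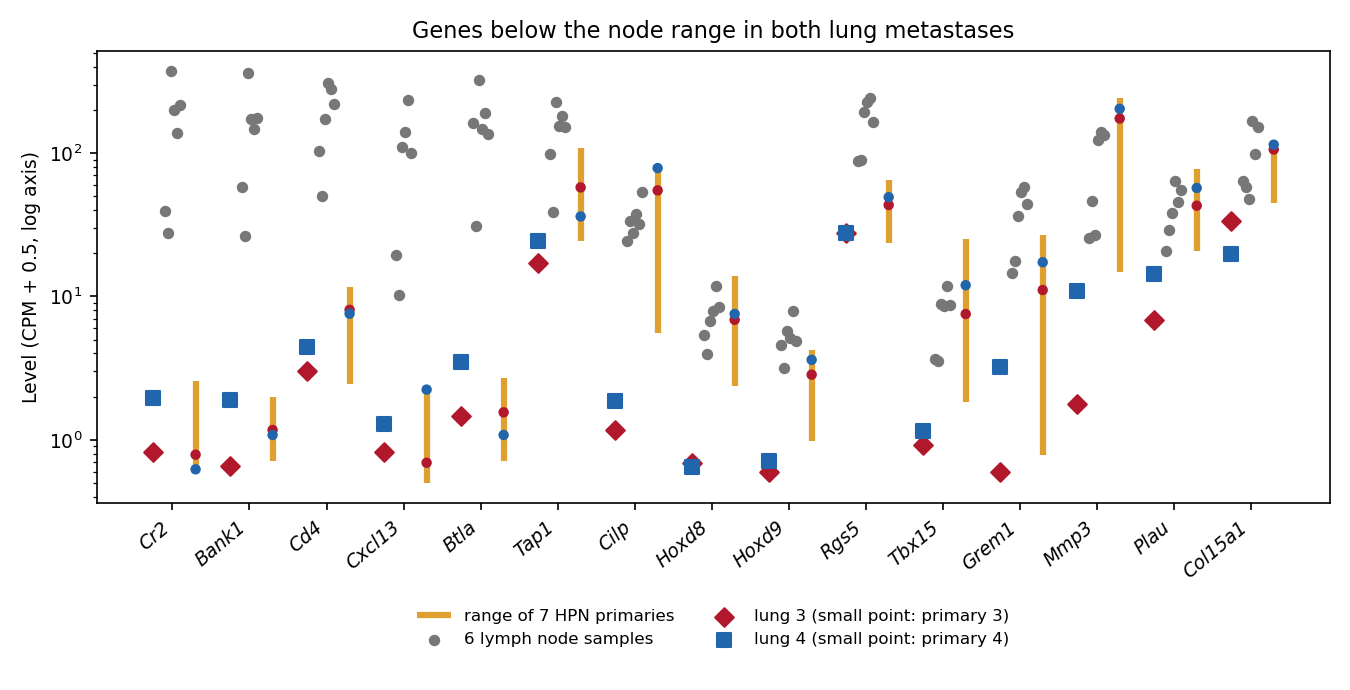
Levels (CPM + 0.5, log axis) of 15 genes below the node range in both lungs: lung 3 (diamond), lung 4 (square), 6 nodes (grey), and the range of the 7 HPN primaries (bar) with primaries 3 and 4 as small points. For lymphocyte genes such as Cr2 and Cd4 the primaries lie with the lungs, and for Cilp, Hoxd8 and Hoxd9 they lie with or near the nodes.

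Some genes low in the lungs were not lymphocyte genes, and the primaries carried them. Cilp, a cartilage intermediate layer protein of the matrix, was at 0.674 CPM in lung 3 and 1.36 CPM in lung 4, with 24, 32.2 and 52.8 CPM as the lowest, median and highest node values. The primaries held 5.06 to 78.1 CPM, with 54.4 CPM in primary 3 and 78.1 CPM in primary 4, so that both lungs were below every other HPN sample. It fell, with a log2 difference of -5.07 ± 0.96 (SE), edgeR adjusted p = 0.0199, and 0.211 with the sample number as a block. Both lungs lay below the nodes and the primaries for 161 genes (0.841%), of which 43 were called.

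Hox genes give cells their position along the body. Hoxd8 was at 0.193 CPM in lung 3 and 0.143 CPM in lung 4, with 3.48, 6.84 and 11.3 CPM as the lowest, median and highest node values, and 1.85 to 13.4 CPM in the 7 primaries. Hoxd9 was at 0.0963 CPM in lung 3 and 0.215 CPM in lung 4, and between 2.67 and 7.41 CPM in the nodes (median 4.48), and 0.473 to 3.72 CPM in the 7 primaries. Both lungs were below all nodes and primaries for both genes, and the 2 lungs were close to each other. Hoxd8 gave a log2 difference of -5.32 ± 0.91 (SE), edgeR adjusted p = 0.0167, and 0.211 with the sample number as a block, and Hoxd9 a log2 difference of -4.90 ± 0.92 (SE), edgeR adjusted p = 0.0195, and 0.215 with the sample number as a block. Of 19 Hox genes tested 2 fell and 9 had both lungs below the nodes, where 3.09% and 13.4% of all genes did. The median log2 difference was -2.71, where that of all genes was 0.01. The list summed to 15.5 CPM in lung 3, 27.2 CPM in lung 4 and 18.3 to 64.8 CPM in the nodes, so that lung 4 was within the node range. Above the nodes were 1 gene in lung 3 and 2 in lung 4, and 5 genes had no count in lung 3. The nodes of the same animals held 4.91 CPM (node 3) and 3.48 CPM (node 4) of Hoxd8.

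Some single genes known from stromal cells were low. Rgs5, a signalling regulator of pericytes, was at 27.2 CPM in lung 3 and 27.4 CPM in lung 4, and between 87.8 and 240.3 CPM in the nodes (median 178), and fell, with a log2 difference of -2.61 ± 0.48 (SE), edgeR adjusted p = 0.0180, and 0.230 with the sample number as a block. The primaries had 23.1 to 64.3 CPM and overlapped the lungs. The smooth muscle and pericyte list that holds Rgs5 had 11 genes tested: 2 rose, above the nodes in lung 4 and not in lung 3, 1 fell, and 1 was below the nodes in both lungs, with a median log2 difference of 0.42. Tbx15, a T-box factor of trunk skin mesenchyme, was at 0.417 CPM in lung 3 and 0.644 CPM in lung 4, and between 3.02 and 11.4 CPM in the nodes (median 8.17). Mmp3, a matrix metalloproteinase of fibroblasts, was at 1.28 CPM in lung 3 and 10.5 CPM in lung 4, with 25.1, 84.8 and 139 CPM as the lowest, median and highest node values, and 14.3 to 242 CPM in the 7 primaries. Plau, the urokinase gene, was at 6.29 CPM in lung 3 and 13.9 CPM in lung 4, and Col15a1, a basement membrane collagen, at 33.3 CPM in lung 3 and 19.2 CPM in lung 4, with lowest node values of 20.4 and 47.5 CPM. Tbx15, Mmp3, Plau and Col15a1 were below all nodes and all primaries in both lungs and missed the threshold (edgeR adjusted p = 0.0831, 0.0958, 0.0610 and 0.0568). The lung fibroblast list, which holds other fibroblast genes, summed to 53.8 CPM in lung 3, 1122 CPM in lung 4 and 110.2 to 522 CPM in the nodes, below the nodes in lung 3 and above them in lung 4. Grem1, a BMP antagonist of stromal cells, was at 0.0963 CPM in lung 3 and 2.72 CPM in lung 4 and 14.1 CPM or more in the nodes (edgeR adjusted p = 0.117).

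Kcna1, Mal, Bdnf, Sema3e and Nes, genes known from neurons or glia, stood above the nodes in both lungs. Kcna1, a voltage-gated potassium channel of axons, was at 89.95 CPM in lung 3 and 22.1 CPM in lung 4, with 0.328, 1.24 and 1.92 CPM as the lowest, median and highest node values. Mal, a proteolipid of myelin and of T cells, was at 3.76 CPM in lung 3 and 11.4 CPM in lung 4, and at most 0.0827 CPM in a node. Both genes were at least 10-fold higher in either lung than in any node. Mal gave a log2 difference of 7.34 ± 1.15 (SE), edgeR adjusted p = 0.0138, and 0.196 with the sample number as a block. Bdnf, the brain-derived neurotrophic factor, was at 4.01 CPM in lung 3 and 14.8 CPM in lung 4, and Sema3e, an axon guidance ligand, at 17.1 CPM in lung 3 and 36.8 CPM in lung 4. The highest node values were 0.460 CPM for Bdnf and 2.36 CPM for Sema3e. Nes, the intermediate filament nestin of neural progenitors, was at 33.4 CPM in lung 3 and 103 CPM in lung 4, with 4.94, 5.91 and 7.58 CPM as the lowest, median and highest node values, and rose, with a log2 difference of 3.49 ± 0.48 (SE), edgeR adjusted p = 0.0128, and 0.215 with the sample number as a block.

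The primaries held these transcripts too. Kcna1 was at 65.2 CPM in primary 3 and 63.3 CPM in primary 4, in a range of 0.276 to 152 CPM in the 7 primaries. Bdnf was at 4.07 and 7.81 CPM and Nes at 42.2 and 39.8 CPM in primaries 3 and 4. For Kcna1 both lungs were within the range of the primaries, and so were the nodes, all of them under the median primary of 26.8 CPM. Mal was above the range of the primaries in both lungs, with 0.0197 to 1.82 CPM in the 7 primaries. The Schwann cell and myelin list, whose cells share many of these genes, had 2 rises among 10, Mal and Prx, 3 genes with both lungs above the nodes and a median log2 difference of 0.03, and its sums were 731 CPM in lung 3, 1019 CPM in lung 4 and 297 to 659 CPM in the nodes. The list of neural crest-like genes as a whole had 2 rises among 14, Nes and Tead1, and 5 with both lungs above the nodes. Over all genes the shares were 1.96% and 11.2%. Ngfr, the low-affinity nerve growth factor receptor, was at 183 CPM in lung 3 and 55.5 CPM in lung 4, and between 12.7 and 38.5 CPM in the nodes (median 18.6), and missed the threshold (edgeR adjusted p = 0.0614). Erbb3, the neuregulin receptor of neural crest cells, rose: it was at 297 CPM in lung 3 and 320.0 CPM in lung 4, and at most 221 CPM in a node (edgeR adjusted p = 0.0447, 0.385 with the block).

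**Figure D4:**
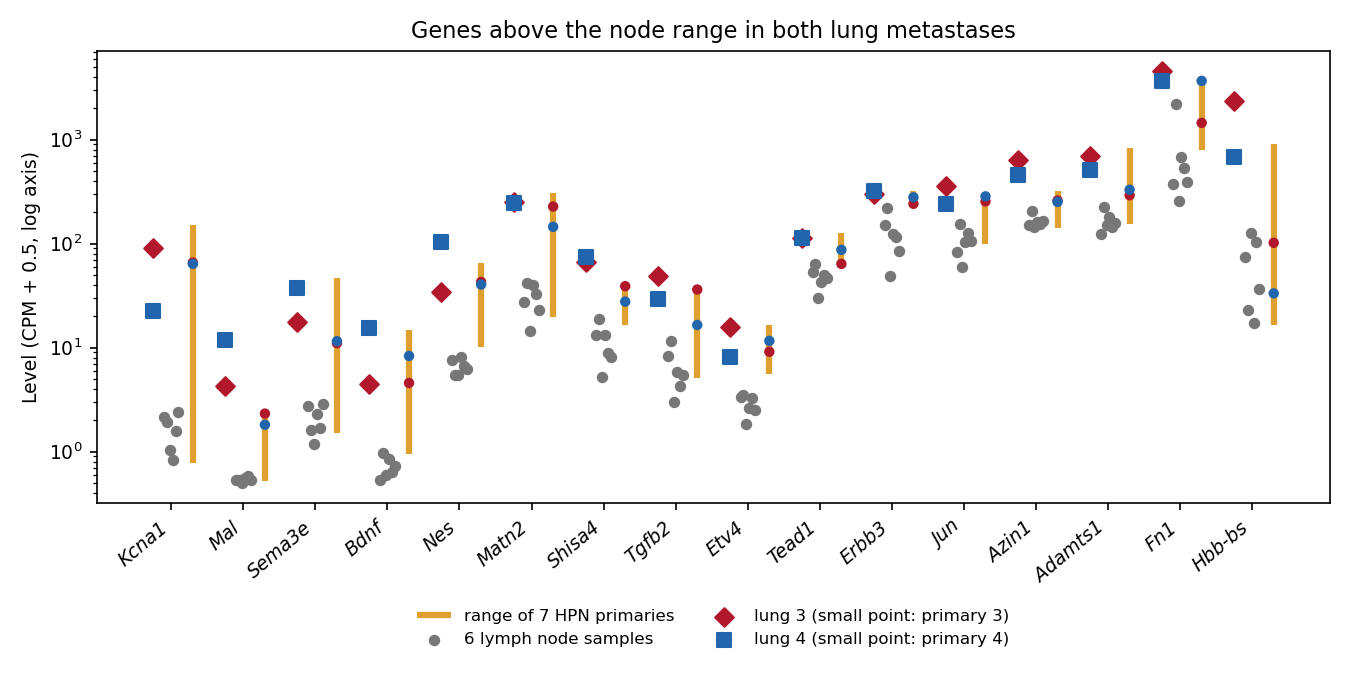
Levels (CPM + 0.5, log axis) of 16 genes above the node range in both lungs, with the symbols of the plot of low genes: lung 3 (diamond), lung 4 (square), 6 nodes (grey), range of the 7 HPN primaries (bar). The primaries overlap the lungs for most of these genes, and lie below both lungs for Mal, Shisa4 and Azin1.

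Matrix and growth factor genes were among the rises. Matn2, the matrix protein matrilin 2, was nearly equal in the lungs, at 252 CPM in lung 3 and 243 CPM in lung 4, with 14, 29.6 and 41.4 CPM as the lowest, median and highest node values. It gave a log2 difference of 3.07 ± 0.62 (SE), edgeR adjusted p = 0.0246, and 0.230 with the sample number as a block. Fn1, fibronectin, was at 4528 CPM in lung 3 and 3666 CPM in lung 4, with 257, 459 and 2173 CPM as the lowest, median and highest node values, and its highest node was node 4, of the animal of lung 4. Fn1 rose, with an edgeR adjusted p of 0.0453 and 0.230 with the block. Tgfb2, a ligand of the TGF-beta family, was at 48.5 CPM in lung 3 and 28.8 CPM in lung 4, and at most 11.1 CPM in a node. Adamts1, a secreted protease of proteoglycans, was at 701 CPM in lung 3 and 509 CPM in lung 4, and between 123 and 223 CPM in the nodes (median 154). Sulf2, which trims heparan sulphate, and Col4a5, a basement membrane collagen, rose as well. Of 15 collagens and matrix proteins 1 rose, Fn1, and the median log2 difference of the list was -0.10.

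Transcription factors and abundant cell body genes were part of it. Tead1, a factor of the Hippo pathway, was equal in the lungs, at 113 CPM in lung 3 and 112 CPM in lung 4, with 29.8, 48.1 and 62.5 CPM as the lowest, median and highest node values. It gave a log2 difference of 1.25 ± 0.25 (SE), edgeR adjusted p = 0.0244, and 0.219 with the sample number as a block. Etv4, an ETS factor induced by ERK signalling, was at 15.3 CPM in lung 3 and 7.65 CPM in lung 4, and at most 3.02 CPM in a node, and rose. Jun, of the AP-1 factor, was at 357 CPM in lung 3 and 239 CPM in lung 4, and between 59.3 and 155 CPM in the nodes (median 105), and rose. Etv4 was the one of 12 MAPK output genes to be called. Of that list, 6 genes had both lungs above the nodes, where 11.2% of all genes did. The median log2 difference of the list was 0.89. Dusp6, a phosphatase of that pathway, was at 243 CPM in lung 3 and 194 CPM in lung 4, with at most 171 CPM in a node and an edgeR adjusted p of 0.245. Of 16 integrin and laminin genes 2 rose and 5 had both lungs above the nodes, where 1.96% and 11.2% of all genes did.

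Both lungs lay above the nodes and the primaries for 254 genes (1.33%), and 81 of them were called. Shisa4, a membrane protein of the Shisa family, was at 66.1 CPM in lung 3 and 73 CPM in lung 4, with 4.67, 10.5 and 18.4 CPM as the lowest, median and highest node values, and 16 to 38.4 CPM in the 7 primaries. Azin1, the antizyme inhibitor that sustains polyamine synthesis, was at 636 CPM in lung 3 and 457 CPM in lung 4, with 144, 156 and 206 CPM as the lowest, median and highest node values, and 139.8 to 320.3 CPM in the 7 primaries. In both genes every lung value exceeded every node and primary value. Shisa4 gave a log2 difference of 2.69 ± 0.36 (SE), edgeR adjusted p = 0.0111, and 0.211 with the sample number as a block, and Azin1 a log2 difference of 1.75 ± 0.27 (SE), edgeR adjusted p = 0.0138, and 0.211 with the sample number as a block. Dst, the cytoskeletal linker dystonin, was at 4693 CPM in lung 3 and 3955 CPM in lung 4, with between 758 and 2885 CPM in the nodes (median 1139) and 3458 CPM in the highest primary. Mprip, which binds myosin phosphatase, was at 372 CPM in lung 3 and 398 CPM in lung 4, with 246 CPM in the highest node and 343 CPM in the highest primary. Trak2, an adaptor of mitochondrial transport, Map4k4, a kinase of cell motility, Sh3pxd2a, a scaffold of invadopodia, and Scarb2, a lysosomal membrane protein, shared this order and rose. Other genes above all nodes and primaries had lung 4 well above lung 3, as Prdx6, a peroxiredoxin of lung, with 78.7 CPM in lung 3 and 317 CPM in lung 4, and Itga8, an integrin of fibroblasts, with 5.07 CPM in lung 3 and 45.4 CPM in lung 4.

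Melanosome genes as a list did not separate lung from node. None of 17 was called by edgeR or had both lungs outside the nodes, 1 had an unadjusted p under 0.05, and DESeq2 called 0. The summed level was 47702 CPM in lung 3 and 35338 CPM in lung 4, with 7316, 26674 and 56972 CPM as the lowest, median and highest node values. Dct, dopachrome tautomerase, was at 19705 CPM in lung 3 and 13039 CPM in lung 4, with 2108, 7097 and 18879 CPM as the lowest, median and highest node values. Tyr, the tyrosinase that begins melanin synthesis, was at 2217 CPM in lung 3 and 1478 CPM in lung 4, with 244, 582 and 2024 CPM as the lowest, median and highest node values. Pmel, the fibril protein of melanosomes, was at 3643 CPM in lung 3 and 2054 CPM in lung 4, with 787, 3933 and 7924 CPM as the lowest, median and highest node values. Lung 3 was above the nodes for Dct and Tyr and lung 4 within them.

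The genes of the list were unequal when each was set against the mean log2 level of the list in its own sample, a view chosen after the values were seen and given with no test. Dct was 4.77 above that mean in lung 3 and 4.26 in lung 4, and 3.26 to 3.93 in the nodes. Tyr was 1.62 and 1.12 above it in the lungs, and -0.55 to 0.71 in the nodes. Trpm1, the cation channel melastatin, was at -4.42 in lung 3 and -2.60 in lung 4, and -1.95 to -0.86 in the nodes. In all, 5 of 17 genes were above the node range in both lungs on this scale, Tyr, Dct, Tyrp1, Mlph and Slc45a2, and 3 were below it, Trpm1, Oca2 and Slc24a5. The Pmel to Dct ratio of CPM values was 0.185 in lung 3 and 0.158 in lung 4, 0.373 to 0.773 in the nodes and 0.347 to 0.830 in the primaries. Both lungs were thus below all other HPN samples in that ratio. The windows of Tyr and Dct shown above hold the CATGTG letters, and so do those of Trpm1, Oca2 and Slc24a5, which were on the other side.

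**Figure D5:**
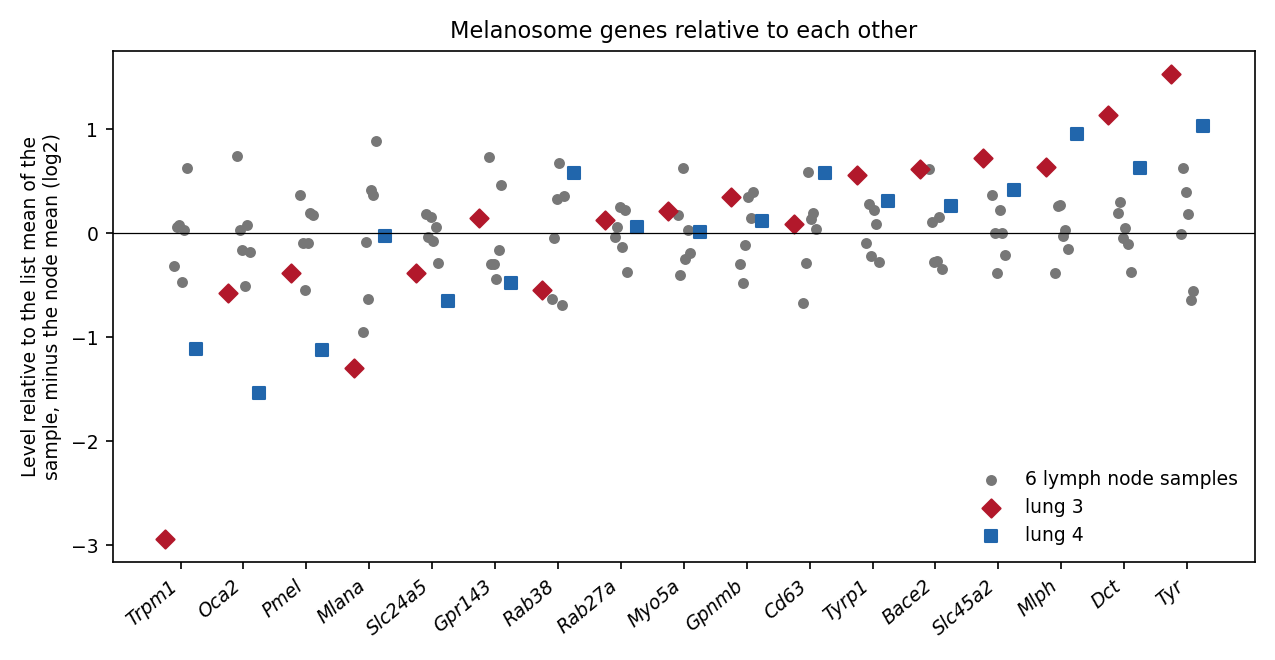
Log2 level of 17 melanosome genes relative to the list mean of each sample, centred on the node mean of each gene, for lung 3 (diamond), lung 4 (square) and the 6 nodes (grey). Trpm1 and Oca2 lie below the nodes in both lungs, and Dct, Tyr, Mlph, Slc45a2 and Tyrp1 above.

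The Nme genes, of which Nme1 and Nme2 are labelled +/- in every sample used, were compared last. Nme1, a nucleoside diphosphate kinase named for its link to metastasis, was at 11.1 CPM in lung 3 and 9.80 CPM in lung 4, with 6.05, 8.65 and 9.12 CPM as the lowest, median and highest node values. Both lungs were just above the nodes, at a log2 difference of 0.38 ± 0.30 (SE) and an edgeR adjusted p of 0.466, and the primaries spanned 5.61 to 13.5 CPM. Nme2 had 3 counts in lung 3 and 2 in lung 4 and at most 0.298 CPM in a node, too few to compare. The settings of the count step and the gene annotation are not stated. Little Nme2 RNA and reads lost in counting therefore cannot be told apart, and these counts are not read as absence of the transcript. Nme5, a family member of ciliated and germ cells, was called higher at 0.514 CPM in lung 3 and 2.15 CPM in lung 4 and at most 0.604 CPM in a node (edgeR adjusted p = 0.0483, 0.347 with the block), and lung 3 lay within the nodes. Nme7, a member found at centrosomes and cilia, was at 19.9 CPM in lung 3 and 16.6 CPM in lung 4, just above the 16.2 CPM of the highest node (edgeR adjusted p = 0.0914).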

How the data were processed

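RNA was made into directional libraries, per the labels' protocols. The deposited files hold raw read counts per Ensembl gene and carry no normalization; bcl2fastq 1.8.4, STAR 2.5.3a and the mm9 genome are named in the submitters' processing notes, while neither the settings of the count step nor the gene annotation is stated in the sources used here. Of 37620 identifiers, 87.4% were paired with a symbol, and entries for reads outside genes were left out.

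The 2 lungs, 6 nodes (number 7 summed) and 7 HPN primaries entered 1 edgeR 4.0.16 quasi-likelihood fit (R 4.3.3, filterByExpr, TMM), with the contrast lung minus node and Benjamini-Hochberg adjustment over 19152 genes. The primaries share the estimate of the spread, since 2 lungs give little of their own. A gene was called at an adjusted p under 0.05, and levels are TMM-scaled CPM. Title numbers were taken to pair samples: same-numbered node and primary deviated together for all 5 pairs (r = 0.152 to 0.342), as did lung and primary (0.157 and 0.218), while lung and node gave 0.314 for number 3 and -0.0709 for number 4, where 2 lungs deviate as mirror images. Pairs of unlike number are not given beside these, so the values cannot decide whether the number is the animal. Fits with that block, with DESeq2 1.42.0 and with limma 3.58.1, and the other alternatives, are given in the closing section.

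The comparison, the gene lists and the alternatives were chosen with earlier results of these data known. Named genes were Nme1 and Nme2, the 15 largest called changes and the 15 widest gaps in each direction at a mean of 5 CPM or more, up to 6 members of each list by p and its first 3, the 15 most abundant called genes outside tissue lists, and the 5 most unequal between the lungs in each direction. Predicted genes, pseudogenes and receptor segments were counted as groups.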

Additional observations from a re-analysis of the deposited data

Results flagged for a closer look

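In 6 of 102 named genes 1 node stood apart from the other nodes, past Dixon's critical value for 6 samples, which sets the gap to the nearest node against the whole range. Chance marks about 5% of groups in this way. Node 4 was the sample apart in 5 of the 6. It was the highest node for Trak2, the adaptor of mitochondrial transport, at 224 CPM (gap 0.755 of the range), and for Azin1, the antizyme inhibitor, at 206 CPM (0.651). It was the lowest for Prx, the myelin protein periaxin, at 1.84 CPM (0.672). It was the highest for Wt1 at 0.173 CPM, the others having no count (1.0), and the lowest for Btla, the lymphocyte receptor, at 30.7 CPM (0.631). Node 5 was the lowest node for Pmel, the melanosome fibril protein, at 787 CPM (0.685). Both lungs lay outside the node range for Trak2, Azin1, Prx, Wt1 and Btla with node 4 included.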

How the results depend on the processing

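All calls were sensitive to which samples entered. With the sample number as a replicate block 0 genes were called higher and 0 lower, also with the lung and node samples only (lowest edgeR adjusted p = 0.758, with 1021 genes at an unadjusted p under 0.05). With no block, the lung and node samples only gave 166 higher and 256 lower, and all 4 groups in 1 fit gave 247 higher (218 of the 375) and 423 lower. Leaving out 1 sample at a time gave 0 to 822 genes called higher, 0 to 1195 called lower, 1984 to 5146 above and 2567 to 5125 below the nodes in all lungs kept. The 0 is without lung 4. Without lung 3 there were 414 higher and 24 lower, and 1 lung then has to lie outside in place of 2. The calls higher and lower were 58 and 80 without node 8, 81 and 139 without node 7, 89 and 158 without node 6, 133 and 264 without node 5, 245 and 558 without node 3, and 822 and 1195 without node 4. Without node 4, 3240 genes were above the nodes. Without nodes 7 and 8 there were 0 and 0, also among metastases alone (lowest edgeR adjusted p = 0.188, with 2601 genes at an unadjusted p under 0.05). A lone lung was assumed to vary like the other groups.

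DESeq2 called 771 higher and 1698 lower, among them 372 of the 375 and 589 of the 591. Library size alone in place of TMM gave 236 higher, and nodes 7a and 7b kept apart gave 592. A covariate for the mean of the melanosome list, chosen after seeing the data, gave 1065 and 1140. Leaving out the lung tissue lists, also chosen after seeing the data, gave 327 and 561. The cause of these differences was not tested.

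Of 102 named genes tested, 10 turned in direction, all without lung 4, where no call was left. Leaving out 1 sample at a time, their log2 differences ran, lowest to highest: Actc1 -3.70 to 11.74, Ager -0.27 to 6.72, Bpifa1 -5.45 to 11.85, Chil3 -3.28 to 6.14, Myh6 -5.26 to 11.64, Scgb1a1 -6.67 to 10.63, Sftpa1 -2.10 to 11.82, Sftpb -6.22 to 11.85, Sftpc -3.07 to 11.53 and Slc34a2 -0.77 to 11.57. Without lung 4 the only lung left had no count for Actc1, Bpifa1, Myh6, Scgb1a1 and Sftpb. The lowest values of these genes therefore depend on the prior count and do not measure the size of a fall. Depth also limits genes with a few counts in a group, such as Nme2, Sln and, in lung 3, Sftpa1, for which fitted values depend on the prior count too.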

Other observations

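Gene groups not yet described gave no edgeR calls among keratinocyte, glycolysis, respiratory chain and ribosomal genes. Keratinocyte genes, which mark skin, were above the nodes in both lungs for 6 of 12 and below them for 2. None was called by edgeR (0 at an unadjusted p under 0.05, 0 called by DESeq2), and levels were far under those of most primaries. The list summed to 55.9 CPM in lung 3 and 33.1 CPM in lung 4, with 33.8, 61.2 and 117 CPM as the lowest, median and highest node values. Krt14, a basal keratin, was at 10.3 CPM in lung 3 and 6.65 CPM in lung 4, 0.0597 to 5.58 CPM in the nodes and 288 CPM in the median primary. Of 16 glycolysis and hypoxia genes 3 and of 16 respiratory chain genes 6 had both lungs above the nodes, where 11.2% of all genes did. The median log2 differences were 0.71 and 0.43, with no edgeR call in either (unadjusted p under 0.05 for 1 and 2, DESeq2 calls 0 and 0). Gapdh, a glycolytic enzyme, was at 915 CPM in lung 3 and 835 CPM in lung 4, with 208, 551 and 772 CPM as the lowest, median and highest node values, and an edgeR adjusted p of 0.467.

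Of 16 ribosomal protein genes 4 lay below the nodes in both lungs, where 13.4% of all genes did. The median log2 difference was -0.34, with no edgeR call (2 at an unadjusted p under 0.05, 1 called by DESeq2). Cxcl12, the chemokine that draws Cxcr4-bearing cells, was at 19.3 CPM in lung 3 and 87.8 CPM in lung 4 and between 90.5 and 608 CPM in the nodes (median 361), and Cxcr4 itself at 7.51 CPM in lung 3 and 25.6 CPM in lung 4 and between 34.9 and 192 CPM in the nodes (median 76.4). Both genes lay below the nodes in both lungs and missed the threshold (edgeR adjusted p = 0.106 and 0.0803). Tbx2, a T-box factor of melanocytes, was at 359 CPM in lung 3 and 189 CPM in lung 4, with 31.2, 111 and 157 CPM as the lowest, median and highest node values, and 50.3 to 493 CPM in the 7 primaries (edgeR adjusted p = 0.202).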
